A study of Mus musculus with 21 samples.

Results

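Msln, Mme, Epcam, Ecm1, 2300002M23Rik and Cdcp1 encode proteins of the cell surface or the secretory pathway, and form a set of abundant genes of mouse taste buds. They were chosen by name for their levels in the deposited table, and all 6 were found, each at 1 locus, among 43193 gene symbols of the authors' merged annotation. The tissue was circumvallate taste bud, dissected from papillae at the back of the tongue, of mice of the inbred strain C57BL/6J, wild type in genotype and 20 to 24 weeks old. The labels give 21 libraries, with 7 labelled Hungry, 7 labelled Satiated and 7 labelled Ad lib, after fasting, feeding or free access to food, without times. The table cannot speak to feeding. Its 3 conditions carry the letters H, F and C, which the labels give to Hungry, Satiated and Ad lib libraries, and they held identical values at all 32052 loci, so every value below pools the 21 libraries. No fold change or test between Hungry, Satiated and Ad lib could be made, and no level per library can be shown.

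Surface proteins of a taste bud hold its cells together, receive signals and trim peptides in the space around them, while secreted proteins fill that space and the matrix below. EpCAM, the product of Epcam, is an adhesion glycoprotein of epithelia whose partner claudin-7 it stabilises. CDCP1, the product of Cdcp1, is a membrane glycoprotein with CUB domains that Src family kinases phosphorylate. Mesothelin, from Msln, is a membrane-anchored protein made from a precursor that also yields a secreted factor, and it is best known from the lining of body cavities. Mme encodes neprilysin (CD10), a surface zinc peptidase that cuts short signalling peptides. Ecm1 encodes extracellular matrix protein 1, a secreted glycoprotein of skin and other epithelia. The locus 2300002M23Rik carries the synonyms Stg and emprin in RefSeq, and STG was named after a taste bud transcript of the rhesus monkey.

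Start regions of 4 members are shown because these members span the range described below, Ecm1 and 2300002M23Rik with the highest levels and Epcam and Cdcp1 with the lowest variation. Each runs 5′ to 3′ from 250 bases before the RefSeq start site to 50 bases from it on, as RefSeq gives it on GRCm38.p6. Capitals mark matches, on either strand and also where they overlap, to TATAAA, the core of a TATA box, and to GGGCGG, a GC box. RefSeq promoter entries matched 5 of the 6 members, and Mme, with 3 entries, is not printed.
Ecm1, chr3:95739520-95739819, minus strand: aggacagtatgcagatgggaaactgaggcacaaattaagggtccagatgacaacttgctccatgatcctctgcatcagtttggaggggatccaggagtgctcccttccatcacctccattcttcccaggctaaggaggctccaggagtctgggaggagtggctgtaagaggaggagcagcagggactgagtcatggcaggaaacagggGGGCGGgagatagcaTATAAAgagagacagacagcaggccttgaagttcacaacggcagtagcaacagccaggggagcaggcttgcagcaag
2300002M23Rik, chr17:35567235-35567534, plus strand: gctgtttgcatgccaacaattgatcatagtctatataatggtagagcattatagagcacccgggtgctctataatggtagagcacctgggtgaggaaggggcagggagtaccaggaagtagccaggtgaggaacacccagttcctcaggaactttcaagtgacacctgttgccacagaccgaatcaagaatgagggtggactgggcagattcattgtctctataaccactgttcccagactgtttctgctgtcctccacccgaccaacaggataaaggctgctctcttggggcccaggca
Epcam, chr17:87635729-87636028, plus strand: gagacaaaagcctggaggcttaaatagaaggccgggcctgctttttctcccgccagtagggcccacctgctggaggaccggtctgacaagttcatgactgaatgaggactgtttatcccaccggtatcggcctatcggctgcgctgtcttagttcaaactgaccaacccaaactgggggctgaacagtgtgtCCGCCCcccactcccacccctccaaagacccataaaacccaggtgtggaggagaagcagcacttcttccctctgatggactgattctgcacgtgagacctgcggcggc
Cdcp1, chr9:123215989-123216288, minus strand: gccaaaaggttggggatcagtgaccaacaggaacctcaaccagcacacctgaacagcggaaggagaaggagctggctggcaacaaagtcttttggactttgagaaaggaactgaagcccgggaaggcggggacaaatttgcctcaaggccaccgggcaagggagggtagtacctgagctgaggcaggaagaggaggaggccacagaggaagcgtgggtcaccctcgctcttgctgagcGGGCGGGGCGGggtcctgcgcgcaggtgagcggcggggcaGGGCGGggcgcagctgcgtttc

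The TATA box core was present once in these windows, in Ecm1, where it began 27 bases before the start site. Over 32851 promoters of the same length, 13.6% held it on either strand and 35.7% held the GC box. The GC box was found 3 times in Cdcp1, once in Ecm1 and once in Epcam, and 2300002M23Rik held neither motif. The GC content was 62.7% in Cdcp1, 57% in Epcam, 54.7% in Ecm1 and 51% in 2300002M23Rik, against a median of 52.7% over all promoters. These matches describe letters in a window and were not tied to any measurement of transcription factors.

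Levels are the authors' means of fragments per library, which Cuffdiff, the program that writes such tables, scales to a common depth by a size factor. Compatible fragments match an annotated transcript, and total fragments include all others at the locus. The sum of the means was 21881979 compatible and 23769781 total fragments. A locus was called detected at a mean of at least 10 compatible fragments, which 13467 loci reached. Among them 8696 held 1 gene symbol, as did 5 of the 6 member loci. The 6 members together carried 1.24% of all compatible fragments. The variation given beside each level is the coefficient of variation (CV) from the authors' variance. Its sums of squares appear to run within each of 3 sets of libraries. At 1595 loci the ratio of variance to squared mean had 1 of the 3 values that arise when a lone library of a set of 8, 7 or 6 holds all fragments. No other set size was matched by more than 1 locus. A CV here therefore leaves out any difference between the set averages. The labels give 7 libraries in each of Hungry, Satiated and Ad lib, so sets of 8, 7 and 6 cannot be these groups exactly, and how the sets relate to the labels is unknown. Nothing in the labels says how many animals stand behind a library. In bulk tissue, fewer cells of a type and less RNA per cell cannot be told apart.

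2300002M23Rik and the secreted member Ecm1 came first by level. 2300002M23Rik had 72979 compatible and 73375 total fragments, the ninth highest level of the detected loci (rank 9), with a CV of 0.189. The locus (ENSMUSG00000039269.5) spans chromosome 17, 35567450 to 35568952, on the plus strand of GRCm38. Ecm1 had 56859 compatible and 57372 total fragments, rank 13, with a CV of 0.137 (ENSMUSG00000028108.15, chromosome 3, 95734147 to 95739569, minus strand). The Ecm1 locus also contains the microRNA gene Mir7014, whose fragments cannot be separated from those of Ecm1. The members were chosen for abundance, so their ranks describe the choice and support nothing further.

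Among the surface members, Msln had 50297 compatible and 50982 total fragments, rank 16, with a CV of 0.132 (ENSMUSG00000063011.7, chromosome 17, 25748614 to 25754327, minus strand). Mme had 47934 compatible and 48271 total fragments, rank 19, with a CV of 0.185 (ENSMUSG00000027820.12, chromosome 3, 63241537 to 63386030, plus strand). Epcam had 40934 compatible and 41545 total fragments, rank 28, with a CV of 0.0739 (ENSMUSG00000045394.9, chromosome 17, 87635979 to 87651106, plus strand). Cdcp1 stood apart, with 2660.4 compatible and 2721 total fragments, rank 1956, and a CV of 0.0575 (ENSMUSG00000035498.10, chromosome 9, 123170824 to 123216038, minus strand). So 5 of the 6 members lay in the top 1% of detected loci, which began at 15524 fragments, and Cdcp1 did not. The word abundant fits Cdcp1 only in that its level exceeded the median of 514 fragments over detected loci, and 14.5% of detected loci reached its level. The rule set no threshold, and the next single-gene protein-coding loci around Cdcp1 were Sdhc above with 2663 fragments and Snx9 below with 2650.4.

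**Figure D1:**
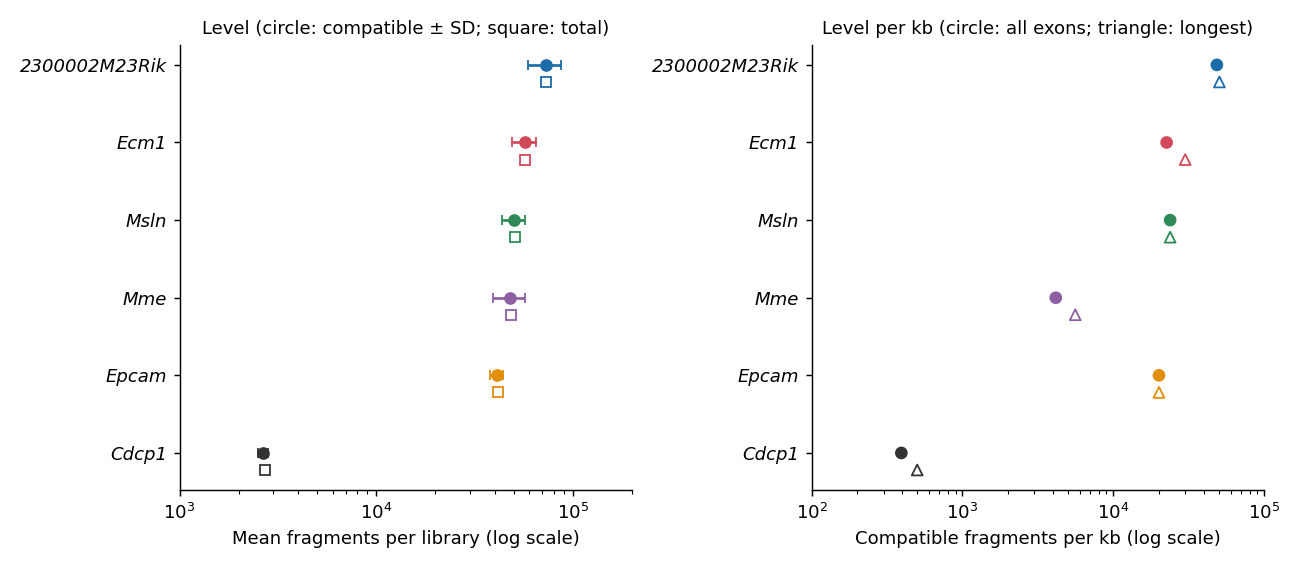
The left panel plots the mean fragments per library of each member on a log axis, compatible fragments as circles with bars of 1 SD from the authors' variance and total fragments as squares. The right panel gives compatible fragments per kb of exon on a log axis, over all exons of matching transcripts (circles) or over the longest matching transcript (triangles); Mme and Cdcp1 stand below the other 4 members per kb.

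Fragments grow with transcript length, so members were compared with each other per kb of exon. 2300002M23Rik had 48556 fragments per kb over 1503 bp of exon. Msln had 23793 fragments per kb over 2114 bp, Ecm1 22554 over 2521 bp and Epcam 20066 over 2040.0 bp. Mme lay behind these on this scale, with 4153 fragments per kb over 11542 bp, and Cdcp1 had 393 over 6765 bp. The gap between 2300002M23Rik and Msln was 2.70 times the larger of their SDs, and that between Epcam and Mme 10.7 times. Msln, Ecm1 and Epcam followed each other by gaps of 0.395 and 0.806 of the larger SD. This SD is the spread of libraries within sets and not the error of a mean, so whether these levels differ was not tested. Per kb, Mme took rank 181 and Cdcp1 rank 3072 among detected loci, while the other 4 members lay between ranks 9 and 23.

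With the longest matching transcript as the length, Ecm1 stood above Msln, at 29926 against 23793 fragments per kb, a gap of 1.5 times the larger SD. Mme then had 5591 fragments per kb over 8574 bp. The labels describe cDNA primed with oligo(dT), and coverage along transcripts is not part of the table, so the share of long transcripts that was read was not tested.

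Almost all fragments at the members matched their annotated transcripts. The compatible share of total fragments was 99.5% at 2300002M23Rik, 99.3% at Mme, 99.1% at Ecm1, 98.7% at Msln, 98.5% at Epcam and 97.8% at Cdcp1. The median over 7238 detected single-gene protein-coding loci was 95.6%. Other fragments ranged from 60.6 per library at Cdcp1 to 684 at Msln.

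Variation between libraries divided the members. Cdcp1 and Epcam were the steadiest, and 2300002M23Rik and Mme the most variable. All 6 CVs lay below the median of 0.231 over detected loci, whose quartiles were 0.151 and 0.449, but the median was also lower, at 0.126, among the top 100 loci by level. Set against the 200 detected loci nearest in level, Cdcp1 had the lowest CV of all, with 0 of 200 below its 0.0575 and a median of 0.130. Epcam had 26 of 200 below its CV, where the median was 0.123. Msln had 123, Ecm1 130, Mme 166 and 2300002M23Rik 170 of 200 below. Median CVs of these 4 comparison sets were 0.122, and their loci are nearly the same for the 5 abundant members, since few loci reach such levels. For Cdcp1 the 200 loci had between 2550.0 and 2773 fragments, and for 2300002M23Rik between 12088 and 260238.

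**Figure D2:**
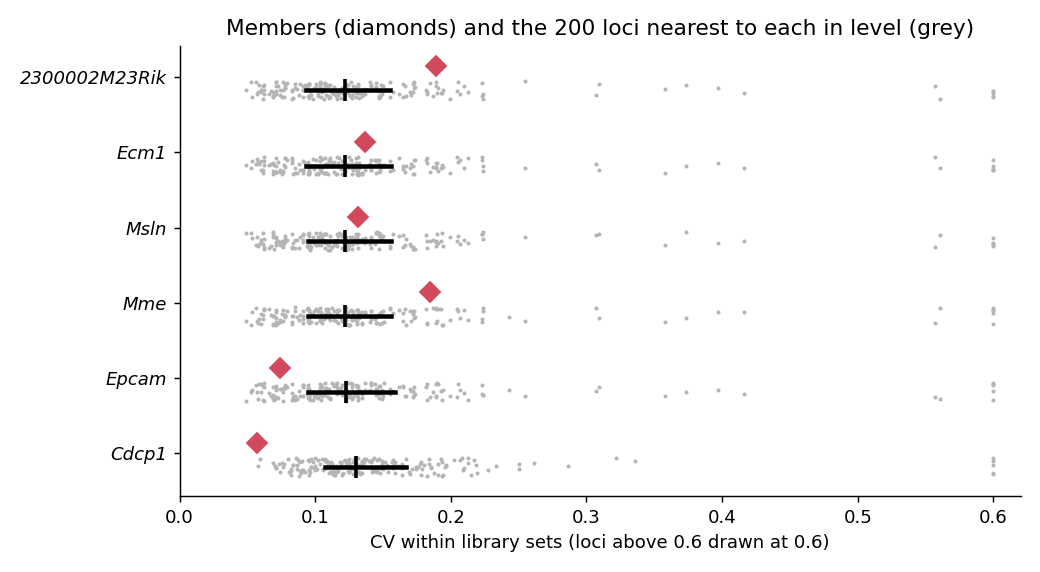
Each row sets the CV of 1 member (diamond) over the CVs of the 200 detected loci nearest to it in level (grey points, with their quartiles as a bar and their median as a tick). Cdcp1 and Epcam lie left of the quartile bar, Msln and Ecm1 within it, and Mme and 2300002M23Rik right of it.

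The authors' fitted variance gives another yardstick, the variance expected at a given mean. None of the 6 members (0 of 6) lay above it, against 26.1% of the 13467 detected loci, and all 6 lay below it, against 73.9%. The log2 ratio of variance to fitted variance was −3.20 for Cdcp1, −2.75 for Epcam, −1.24 for Ecm1, −1.24 for Msln, −0.53 for 2300002M23Rik and −0.23 for Mme. The members' median was −1.24, against −0.65 over all detected loci. In CV terms, the fit gave 0.174 at the level of Cdcp1 and 0.192 at that of Epcam, which are 3.03 and 2.60 times their measured CVs. The fit gave 0.227 at the level of 2300002M23Rik, 1.2 times its CV. Among the 200 loci nearest to 2300002M23Rik in level, 20.0% lay above the fit. This count of 0 did not hold with running medians as the yardstick. Against a running median of the squared CV, 4 of 6 members lay above, as did 50% of detected loci. Against running medians of compatible or total variance 5 of 6 did, as did 49.9% and 49.8% of loci. For these 5 the window reaches down to about 12000 fragments. A median of raw variance there comes mostly from less abundant loci. Whether this count of 5 reflects the members' levels was not tested. By the squared CV, Mme was at 1.19 and 2300002M23Rik at 1.25 on the log2 scale, Ecm1 at 0.32, Msln at 0.21, Epcam at −1.46 and Cdcp1 at −2.33.

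**Figure D3:**
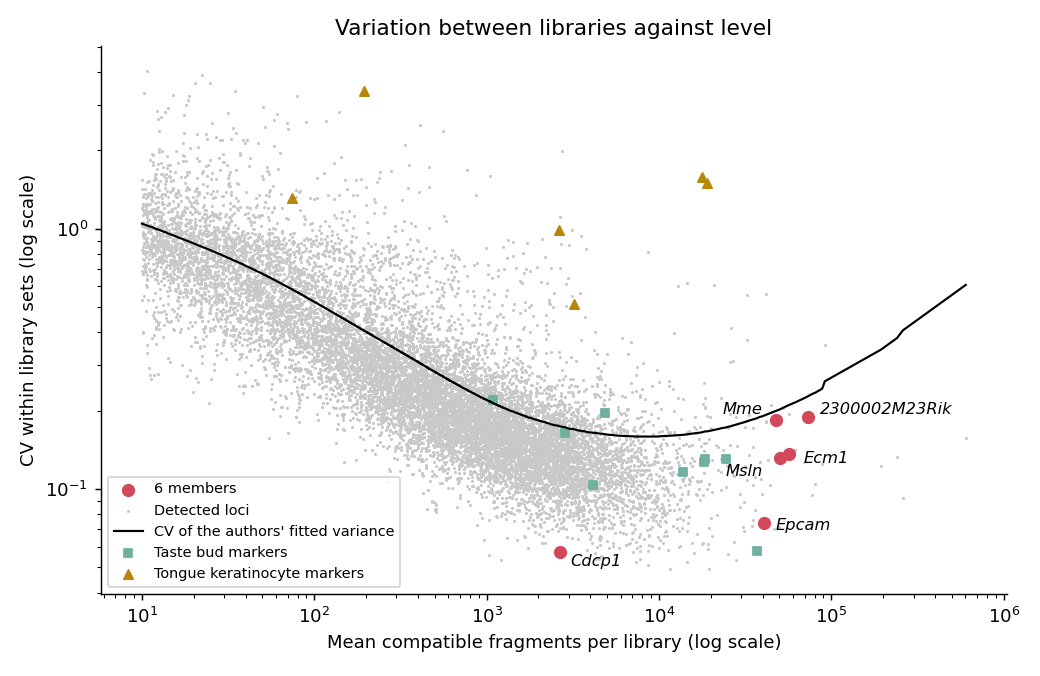
Both axes are logarithmic: mean compatible fragments per library across, CV within library sets upwards. Red circles are the 6 members, grey points the detected loci, squares the single-gene markers of type II cells, type III cells and taste bud keratins, triangles the tongue keratinocyte markers, and the line is the CV of the authors' fitted variance; all 6 members lie under the line and all 6 triangles above it.

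Sampling of fragments alone would give a CV of about 0.0194 at the level of Cdcp1 and of 0.0037 at that of 2300002M23Rik, taking size factors as 1. The measured CVs were 2.96 and 51.0 times these values. Counting error was therefore a small part of the spread of the abundant members and a larger part at Cdcp1. The authors' variance also limits how far a lone library can stray. With sums of squares taken within sets of at most 8 libraries and divided by 21, no library of Cdcp1 could lie further than 24.6% of the mean level from its own set's average. The limit was 31.7% for Epcam, 56.5% for Msln, 58.7% for Ecm1, 79.2% for Mme and 81.0% for 2300002M23Rik. These limits leave the distance between the set averages unbounded, and they say nothing of Hungry, Satiated and Ad lib groups, whose sizes differ from those of the sets.

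Genes of like level are the nearest comparison the table allows, since likeness across libraries needs values per library. Above 2300002M23Rik, the only higher single-gene protein-coding locus was that of Anxa1, an annexin, with 91692 fragments and a CV of 0.358. Hsp90ab1, a cytosolic chaperone gene, lay between 2300002M23Rik and Msln with 51933 fragments and a CV of 0.135. Anxa4 and Serpina1e followed Mme, with 46206 and 42065 fragments and CVs of 0.0700 and 0.183. Around Epcam, the stress keratin gene Krt6a had 41906 fragments with a CV of 0.561, Hspa5 41773 with 0.182, Xbp1 39392 with 0.0957 and Fetub 38831 with 0.109. Around Cdcp1, Spred1, Sdhc, Snx9 and Ube2e3 had CVs of 0.134, 0.0709, 0.146 and 0.111. Epcam thus varied less than each of its 4 neighbours in level, and so did Cdcp1.

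The tissue label was checked against markers. Markers of type II and type III taste cells were detected for 4 of 4 genes each, of type I cells for 2 of 3 and taste bud keratins for 3 of 3. Krt8, a taste bud keratin, had 37058 fragments with a CV of 0.0577, where Epcam had 40934 with a CV of 0.0739. The other taste bud keratins listed were lower and more variable, Krt18 with 18581 fragments and a CV of 0.130 and Krt19 with 18161 and 0.127. Tongue keratinocyte markers were detected for 6 of 6 genes, with CVs from 0.513 for Krt5 to 3.40 for Lor and a summed level of 42907 fragments. Fibroblast markers were detected for 1 of 4 genes, endothelial markers for 2 of 3 and minor salivary gland markers for 0 of 3. Beside all these counts, 13467 of 32052 loci were detected. The endothelial genes were Pecam1 with 42.6 fragments and Kdr with 10.7 and a CV of 4.04, and neither reached a minimum of 50. With the minimum lowered to 1 fragment, fibroblast markers rose to 3 of 4 and salivary gland markers to 1 of 3. The members' CVs were 0.189 at most and those of the 6 keratinocyte markers 0.513 at least. The part of keratinocyte RNA in the members' levels was not tested.

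Epcam was compared with genes tied to its adhesion and processing. The list of EpCAM relatives, partners and processing enzymes was detected in full, 15 of 15, and of its 8 single-gene loci 2 lay above the fitted variance (27.6% of all detected single-gene loci did). Cldn7, encoding the claudin that EpCAM binds, had 5706 fragments with a CV of 0.0806. Cldn1, another claudin gene on the list, had 202 with a CV of 1.07. The sheddase gene Adam10 had 10800.2 fragments with a CV of 0.10, and Cdh1, encoding E-cadherin, had 8191 with a CV of 0.0876.

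For Cdcp1, kinases, partners and proteases known mainly from human cells were listed. Of 15 genes, 13 were detected, 7 at single-gene loci, of which 1 lay above the fitted variance, against 27.6% of all detected single-gene loci. Their median log2 ratio was −1.33, against −0.65 over all detected loci. The integrin gene Itgb1 had 15620 fragments and the protease inhibitor gene Spint2 had 14700.4, with CVs of 0.122 and 0.0741. St14 encodes matriptase, a protease of CDCP1 in human cells, and its locus, which also holds Gm16071, had 3363 fragments and a CV of 0.0992. Plasmin, another protease that cleaves CDCP1, comes from Plg, which had 0.0495 fragments, and its activator gene Plau had 3.96. The kinase gene Src had 378 fragments with a CV of 0.162. Its relatives on the list had more, Yes1 with 32250 at a locus of 4 symbols and Fyn with 1451 at a locus of 6. At shared loci at most these levels belong to Yes1 and Fyn.

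Mme, which was picked for its level, had more fragments than each of the 16 other surface peptidase genes listed. Its closest relative Mmel1 reached 83.4 fragments at a locus of 4 gene symbols, so at most that level belongs to it. Of 16 other peptidase genes, 13 were detected, 5 at single-gene loci. These 5 had a median log2 ratio of 0.71 to the fitted variance, against −0.65 over all detected loci, with 3 of 5 above it, against 27.6% of all detected single-gene loci. The carboxypeptidase gene Cpd led them with 5742 fragments and a CV of 0.137, and Anpep, an aminopeptidase gene, had 458 with a CV of 0.205. Per kb, Mme stood at 4153, Cpd at 689 and Anpep at 118. Precursor genes of peptides that neprilysin cuts were detected for 3 of 14 genes, or 7 of 14 with the minimum lowered to 1 fragment. Among the 3 detected, the endothelin gene Edn1 had 91.7 fragments and the adrenomedullin gene Adm 194 at a locus of 2 symbols. Below the minimum, the substance P gene Tac1 had 4.05 and the natriuretic peptide gene Nppb 3.41. The third detected gene was App. App, the amyloid precursor gene, had 13081 fragments and a CV of 0.0691 at a locus of 2 symbols. B-lineage markers, listed because human lymphoid progenitors carry CD10, were detected for 1 of 4 genes, with Cd79a at 0.330 fragments and Cd79b at 70.5.

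Msln sits next to its relative Mslnl, with 283 bp between the loci. The Mslnl locus, which it shares with Gm25083, had 1213 fragments with a CV of 0.273. Per kb, Msln stood at 23793 and Mslnl at 462, a ratio of 51.5, and Msln was picked for its level. Muc16, whose human product binds mesothelin, had 15.0 fragments with a CV of 1.19. Of the other relatives, Otoa, encoding otoancorin, had 0.0495 fragments, and Strc, encoding stereocilin, had 1390 with a CV of 0.0816 at a locus of 2 symbols. Mesothelial markers other than Msln were mostly at or near 0, with Upk3b and Calb2 listed at 0, Wt1 at 1.05 and Upk1b at 20.8 fragments. Lrrn4 was the exception on that list, with 2256 fragments and a CV of 0.155.

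Binding partners of ECM1 and basement membrane genes were detected for 11 of 12 genes, or 6 of 12 with the minimum raised to 50 fragments. Lamb3, a laminin subunit gene, had 6183 fragments at a locus of 7 symbols. The hemidesmosome collagen gene Col17a1 had 2243 fragments with a CV of 0.619, and the fibulin-1 gene Fbln1 had 296 with a CV of 0.786. Hspg2, encoding perlecan, had 10.1 fragments and Mmp9 had 2.23. Ecm1 itself, which was picked for its level, had 56859 fragments, more than each of these genes. Per kb it stood at 22554 and Col17a1 at 389.

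**Figure D4:**
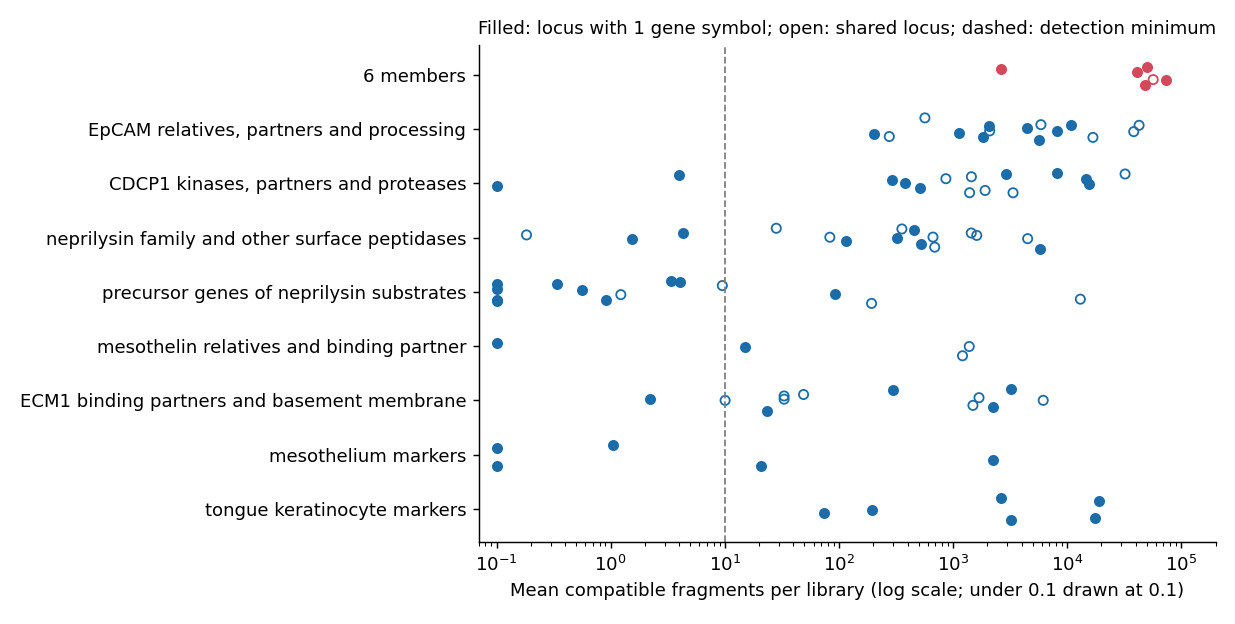
Each point is the mean compatible fragments per library of 1 gene on a log axis, with values under 0.1 drawn at 0.1; the top row holds the 6 members, the rows under it the comparison lists and 2 marker lists. Filled points are loci with 1 gene symbol, open points shared loci, and the dashed line marks 10 fragments; precursor genes of neprilysin substrates and mesothelium markers lie mostly left of it.

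The loci next to the members on the chromosome were at lower levels than the members, which were picked for their levels. Of the 12 loci next to the 6 members, 7 were detected, against 13467 of all 32052 loci. Of the same 12, 4 had 0 compatible fragments, a count given here without the share over all loci, so it cannot be called unusual. 2300002M23Rik lies in the major histocompatibility complex, in a stretch whose human counterpart is tied to psoriasis. On 1 side Gm9613 was listed at 0 compatible fragments and Cdsn, the corneodesmosin gene, had 11, followed by Psors1c2 with 0.517. On the other side the locus of Dpcr1, Gm9573 and Sfta2 had 18.1 fragments. Ecm1 begins 406 bp from Tars2, a tRNA synthetase gene with 1969 fragments, and ends 46229 bp from Adamtsl4, with 622. Beside Cdcp1 lay Gm23323, listed at 0, and Tmem158 with 1346 fragments and a CV of 0.0935.

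Transcript models differed in number between the members. The merged annotation gave Msln and Epcam 1 transcript each, 2300002M23Rik 2 and Cdcp1 3, all from the Ensembl reference. Mme had 16 models, of which 8 were assembled by the authors and 8 came from the reference, with 8 start sites. Ecm1 had 15 models, of which 5 were assembled and 10 came from the reference, with 3 start sites. Among detected single-gene protein-coding loci, 48.9% held at least 1 assembled transcript and the median number of models was 3. None of the assembled models of Mme and Ecm1 used an intron absent from the reference, and 0.0829% of the background loci had such an intron.

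At Mme, 6 of the 8 assembled models joined known introns in a combination of their own, and all 6 ended in the same last exon, 2713 bp long (chromosome 3, 63341907 to 63344619). They had 10 or 11 exons and 3662 to 4262 bp. The reference uses that last exon in a 9-exon transcript annotated by GENCODE as a retained intron, with 3543 bp. The other 2 assembled models had the 23 exons of the full-length transcripts and reached 8574 and 8189 bp. At Ecm1, 4 of the 5 assembled models had 10 or 11 exons and lengths of 1829 to 1954 bp, near the reference forms of 1900.0 and 1894 bp, and the fifth had 807 bp. The table gives 1 level per locus, so how fragments divide among these models was not measured.

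**Figure D5:**
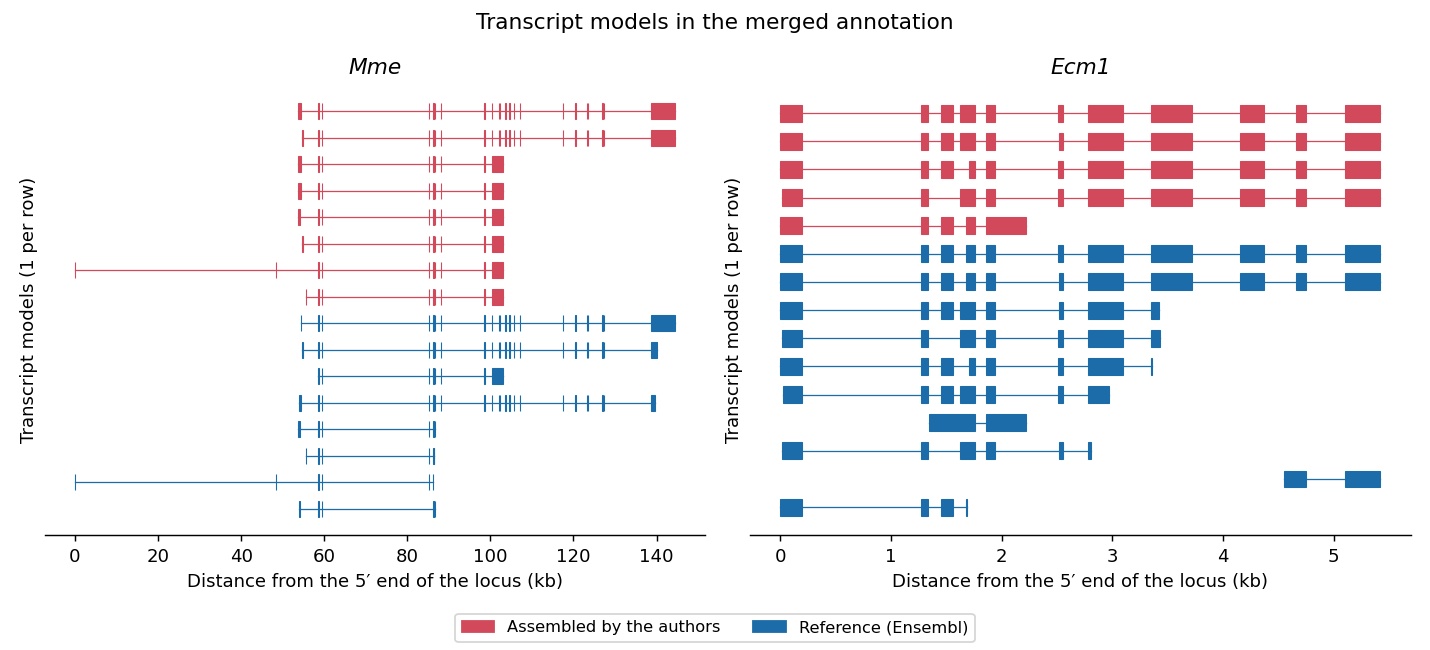
Transcript models of Mme (left) and Ecm1 (right) in the merged annotation, 1 per row, drawn as exons (boxes) and introns (lines) against the distance in kb from the 5′ end of the locus. Red models were assembled by the authors and blue ones come from the reference; 6 red models of Mme end in the same exon.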

How the data were processed

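RNA of circumvallate taste buds was sequenced as 21 libraries. The submitters' processing notes name Trimmomatic, FastQC, TopHat, Bowtie2, Cufflinks and Cuffdiff with GRCm38.p4, and settings were not at hand. Per the file headers, each locus has a signal made by the authors, the mean fragments of compatible or of all reads, with a variance and a fitted variance. Cuffdiff, which writes such tables, divides fragments by a size factor of each library before averaging. No value was scaled by transcript length. The authors also deposited a merged transcript annotation.

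Members and lists were chosen with earlier results of these data known. Transcripts were placed in loci by coordinates, and gene symbols came from the annotation. Exon length was the union of exons of transcripts that match the reference. Biotypes and gene identifiers came from GENCODE M21 (GRCm38), start regions from RefSeq (GRCm38.p6). Nearest loci were taken on the log scale of the mean. The reading of variance within sets allowed a relative tolerance of 0.0001. It was run on libraries simulated in sets of 8, 7 and 6 with the same formula. That run checks the arithmetic only and cannot show how the authors' variance was computed. Named were the 6 members, the 2 single-gene protein-coding loci on each side in level, the next locus on each side on the chromosome, the closest relatives and the 3 highest single-gene loci of each comparison list. Markers served for checks, and other genes (such as Cldn1, St14, Src, Plau, Plg, App, Strc, Lamb3, Hspg2, Mmp9, Cdsn, Psors1c2, Npy, Lnpep and Enpep) were named after their values were seen. Some genes that this rule names are not reported here. No test was possible, because the table holds no value per library or group. Alternatives comprised total fragments, other detection minimums, running medians as the yardstick of variance and other lengths. The software was pandas 2.3.3, numpy 2.4.6 and, for the plots, matplotlib 3.10.9, under Python 3.11.15.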

Additional observations from a re-analysis of the deposited data

How the results depend on the processing

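The count of 5 members in the top 1% by level was unchanged at minimums of 1 and 50 fragments, with no minimum and by total fragments, and was 4 over single-gene loci, which leave out Ecm1. Levels by total fragments differed from compatible levels by less than 1 SD at all 6 members. The number of members above the expected variance was 0 by the authors' fit, 5 by a running median of compatible variance, 5 by total fragments with a running median, and 4 by a running median of the squared CV, which was chosen after seeing the data. By compatible variance the log2 ratios turned to 2.82 for Msln, 3.66 for Mme, 0.56 for Epcam, 3.29 for Ecm1 and 4.93 for 2300002M23Rik. By total fragments they were 2.82, 3.64, 0.52, 3.27 and 4.91 in the same order. By the squared CV they turned to 0.21 for Msln, 1.19 for Mme, 0.32 for Ecm1 and 1.25 for 2300002M23Rik. The window of the running median reaches down to about 12000 fragments at the upper end, so a median of raw variance there comes from less abundant loci. The cause of these changes was not tested for any of the running medians. The 200 loci nearest in level to these 5 members had median CVs of 0.122 or 0.123. The fitted CVs of the 5 members were higher, at 0.192 to 0.227. Cdcp1 stayed below by each yardstick. No paired analysis was possible because the table has no value per library, and leaving out libraries could not be done for the same reason.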

Other observations

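Some genes near or related to the members carried fragments that did not match their annotated transcripts. Npy, whose peptide is a neprilysin substrate, had 0.336 compatible and 1482 total fragments. Lnpep, a surface aminopeptidase gene, had 116 compatible and 3208 total fragments, and Lrrn4 had 2256 compatible and 3637 total. RP24-79E2.3, the next locus after Mme, had 0 compatible and 191 total fragments, and Gm28676, the locus before Epcam, had 0 compatible and 277 total. The surface aminopeptidase gene Enpep had 323 fragments with a CV of 1.29, a log2 ratio of 3.89 to the fitted variance.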
